A study of Mus musculus with 32 samples.

Results

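The comparison set ribosome-associated RNA of VIP neurons of the mouse cortex against that of PV neurons of the cortex. Its members were chosen by their library titles and tissue label, 4 VIP cortex and 4 PV cortex libraries, which are 8 of the 32 libraries of a study of 8 neuron populations of the mouse forebrain. The VIP libraries were VIP cortex replicates 1 to 4, and their titles carry a W before the number. The PV libraries were PV cortex replicates 1 to 4, with plainly numbered titles, so population and title series cannot be told apart between these groups. Every library of both groups was labelled wild type (WT), from murine cortex and of ribosome-associated RNA, with no treatment given. The other populations used for reference carry the same genotype label: SST, Scnn and CamK of the cortex, and SST, CamK and Grik of the hippocampus, where the titles also carry a W. From knowledge of the field, SST neurons are another class of interneurons and CamK, Scnn and Grik neurons are excitatory. The labels give no age or sex of the animals, no driver line and no number of animals behind a library. The p-values thus measure a spread between libraries, which in edgeR was estimated from all 32 libraries.

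VIP neurons are GABAergic interneurons that express vasoactive intestinal peptide and mostly contact other interneurons, so that their activity releases pyramidal cells from inhibition. PV neurons express the calcium-binding protein parvalbumin. They are mostly fast-spiking basket and chandelier cells, which inhibit pyramidal cells at the cell body and at the start of the axon. RNA bound to ribosomes gives a view of what a cell type is translating.

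The values were estimated read counts for 56459 features with identifiers of the form GSMG plus digits. These identifiers are paired with no gene names in the file, and 0 of them occurred in the gene tables of the reference, so no gene is named, neither label was checked on marker genes and RNA of other cell types was not measured. The 8 libraries held 100158438 to 110280017 counts each. Across the tested features the Spearman correlation between libraries was 0.983 to 0.987 within VIP cortex and 0.976 to 0.980 within PV cortex. It was 0.924 to 0.944 between a VIP and a PV library, below every value within either group. Over the 10039 features with at least 5 CPM (counts scaled to the size of the library) in both groups, the median coefficient of variation between replicates was 7.33% in VIP cortex and 9.44% in PV cortex.

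VIP and PV neurons differed in a large part of what they had on ribosomes, and the features higher in VIP cortex outnumbered those lower. Of 24555 features tested, 7260 (29.6%) passed the call rule, an edgeR quasi-likelihood test with a Benjamini-Hochberg adjusted p under 0.05 together with a difference of 2-fold or more. Of these, 5082 (20.7% of those tested) were higher in VIP cortex and 2178 (8.87%) were lower. At the same threshold VIP cortex differed from SST cortex, the somatostatin class of interneurons, in 5831 features (23.7%), and PV cortex from SST cortex in 3723 (15.2%). These 3 comparisons share libraries, and the sizes are given side by side without a test of their difference. At an adjusted p under 0.05 with no fold threshold 13653 features (55.6%) differed between VIP and PV cortex, 7428 higher and 6225 lower. With the TMM scaling used, the excess of features higher in VIP cortex thus lay in differences of at least 2-fold. The smaller ones were more often lower in VIP cortex. Other scalings were not run without a fold threshold, so the direction of the smaller differences under them was not tested. In pooled RNA of this kind, fewer cells with a transcript and less of it in each cell cannot be told apart.

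The calls were carried by separate levels in the individual libraries. All 4 VIP libraries lay above all 4 PV libraries in 7438 features (30.3% of those tested) and below all of them in 5933 (24.2%). Among the called features the libraries did not overlap in 4554 of the 5082 (89.6%) that were higher in VIP cortex and in 2078 of the 2178 (95.4%) that were lower.

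Large differences were found on both sides. Some features had next to no counts in the lower group, where a fitted fold change depends on a small added count. In the called features higher in VIP cortex, the 4 PV libraries together held 0 counts in 226 and 1 to 3 counts in 148. In the called features lower in VIP cortex, the 4 VIP libraries together held 0 counts in 39 and 1 to 3 counts in 23. Without all of these, 792 features were called at least 8-fold higher in VIP cortex and 258 at least 8-fold lower. At least 64-fold, the numbers were 43 higher and 13 lower.

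**Figure D1:**
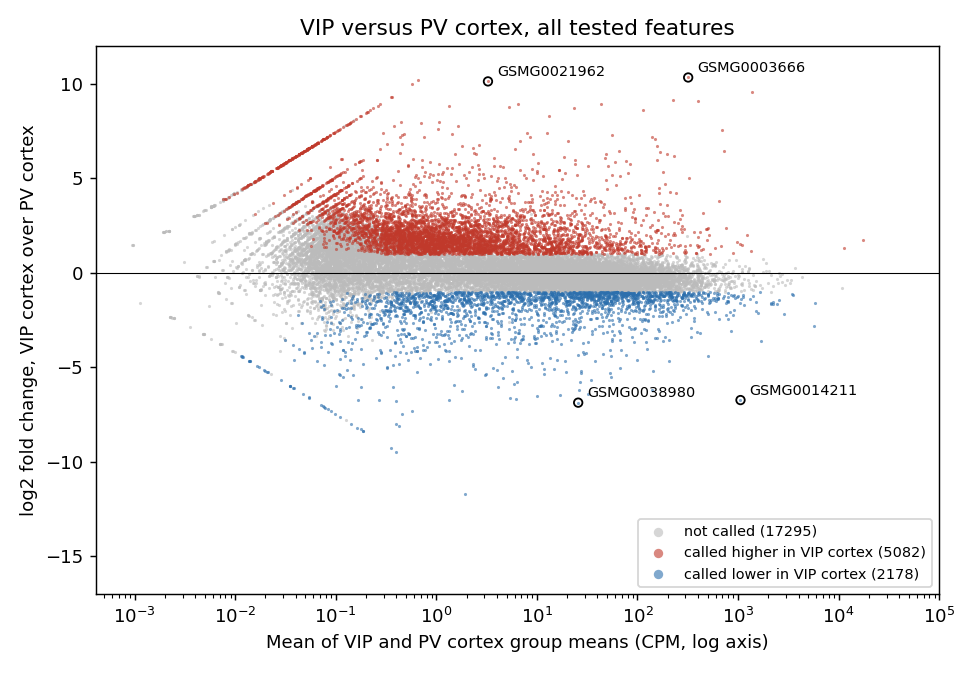
Each point is 1 of the 24555 tested features, with the mean of the VIP and PV cortex group means in CPM on a log axis and the log2 fold change of VIP over PV cortex on the vertical axis; red points (5082) were called higher in VIP cortex, blue points (2178) lower, and grey points were not called. Red points spread over the low levels on the left, blue points are more frequent at high levels on the right, and the straight diagonals at the left edge are features with few or 0 counts in the lower group.

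Features were also sorted by where they reached 1 CPM. In all 8 libraries 12752 features did so, and 1403 of these were called higher and 1364 lower in VIP cortex. Another 1668 reached 1 CPM in all 4 VIP libraries but not in all 4 PV libraries, and 1411 of these were called higher in VIP cortex. A further 496 did so the other way round, and 343 of these were called lower. Of all tested features 20.7% were called higher and 8.87% lower. Sorting by level in the same libraries favours these directions, and 0 of the 1668 were called lower and 0 of the 496 higher. Of the features at 1 CPM or more in all 4 VIP libraries, 21 stayed under 0.1 CPM in every PV library. Of those at 1 CPM or more in all 4 PV libraries, 4 stayed under 0.1 CPM in every VIP library. In each direction 1 of these had 0 counts in the other group.

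The 4 features described singly are the pairs with the largest fold change each way among called features with at least 5 CPM on average in the higher group and no overlap between libraries, a condition met by 1505 features higher and 1371 lower in VIP cortex. GSMG0003666 was at 669, 649, 519 and 716 CPM in VIP cortex replicates 1 to 4, against 0.554, 0.673, 0.303 and 0.447 CPM in PV cortex replicates 1 to 4. It was thus an abundant feature in every VIP library and under 1 CPM in every PV library. The log2 fold change was 10.33 (SE 0.49, edgeR adjusted p = 1.36e-15). Ranked by level it was number 129 of the tested features in VIP cortex and number 15641 in PV cortex. Its level per kilobase of deposited length (643, taken as bases) was 993 CPM in VIP cortex and 0.769 CPM in PV cortex.

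GSMG0003666 was also present in SST cortex, at 15.5 to 25.4 CPM (mean 21.2 ± 4.22, SD, n = 4). The difference between VIP and SST cortex was 4.92 on the log2 scale (SE 0.37, edgeR adjusted p = 5.27e-11). In SST hippocampus its level was 0.476 to 0.961 CPM, close to that in PV cortex. Among the excitatory populations it averaged 3.73 ± 2.15 CPM in Grik hippocampus, 1.16 ± 0.35 CPM in Scnn cortex, 0.763 ± 0.426 CPM in CamK cortex and 0.261 ± 0.191 CPM in CamK hippocampus. The ranges of Scnn cortex, CamK cortex, CamK hippocampus, SST hippocampus and PV cortex overlapped in part. VIP cortex, SST cortex and Grik hippocampus (1.98 to 6.58 CPM) each stood clear of every other group.

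GSMG0021962 was a feature of moderate level that was seen almost only in VIP cortex. It was at 6.19, 7.79, 5.06 and 7.06 CPM in VIP cortex replicates 1 to 4, against 0 CPM in PV cortex replicates 1, 2 and 3 and 0.0190 CPM in replicate 4. These levels rest on 3216 counts over the VIP libraries and 2 counts over the PV libraries. The ratio of the scaled totals of VIP over PV cortex was 1381, with a 95% exact binomial interval of 382 to 11412 that covers counting error only. Of the whole values from 1 to 10 in the file 94.1% were even, so that 2 counts may stand for 1 fragment, and the interval is then too narrow. The edgeR adjusted p was 1.45e-09. In each of the other 6 groups the feature was at 0 in at least 3 of 4 libraries, and its highest value outside VIP cortex was 0.0556 CPM, in SST cortex replicate 1.

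GSMG0038980 was the feature with the largest fold change towards PV. It was at 0.406, 0.351, 0.532 and 0.457 CPM in VIP cortex replicates 1 to 4, against 60.7, 43.0, 51.7 and 48.8 CPM in PV cortex replicates 1 to 4. The log2 fold change was -6.87 (SE 0.57, edgeR adjusted p = 6.32e-11), that is 117-fold higher in PV cortex. No group other than PV cortex exceeded 3.05 CPM in any library. SST cortex ranged from 0.355 to 3.05 CPM, overlapping with VIP cortex, while SST hippocampus, at 1.69 to 2.77 CPM, lay above all VIP libraries. VIP cortex differed from SST cortex by -1.9 on the log2 scale (SE 0.5, edgeR adjusted p = 0.00242). PV cortex was 4.96 higher than SST cortex (SE 0.51, edgeR adjusted p = 8.32e-09).

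GSMG0014211 was among the most abundant features of PV cortex, number 37 of those tested, and number 6788 in VIP cortex. It was at 14.5, 22.5, 27.8 and 14.2 CPM in VIP cortex replicates 1 to 4, against 1598, 2231, 2411 and 2146 CPM in PV cortex replicates 1 to 4. The groups were far apart although each varied by more than 1.5-fold between its libraries. The log2 fold change was -6.73 (SE 0.34, edgeR adjusted p = 3.17e-15). Per kilobase of deposited length (936) the level was 21.1 CPM in VIP cortex and 2240 CPM in PV cortex.

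Both SST populations held intermediate levels of GSMG0014211, at 178 ± 57.2 CPM in SST cortex and 235 ± 41.6 CPM in SST hippocampus (SD, n = 4 each). Their ranges, 126 to 233 and 193 to 286 CPM, overlapped. PV cortex was 3.56 higher than SST cortex on the log2 scale (SE 0.29, edgeR adjusted p = 1.37e-10), and VIP cortex differed from SST cortex by -3.17 (SE 0.29, adjusted p = 1.2e-09). Scnn cortex, at 21.5 to 27.9 CPM, overlapped with VIP cortex. CamK cortex (3.83 ± 1.79 CPM), CamK hippocampus (1.75 ± 0.414 CPM) and Grik hippocampus (1.73 ± 0.561 CPM) lay lower still.

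**Figure D2:**
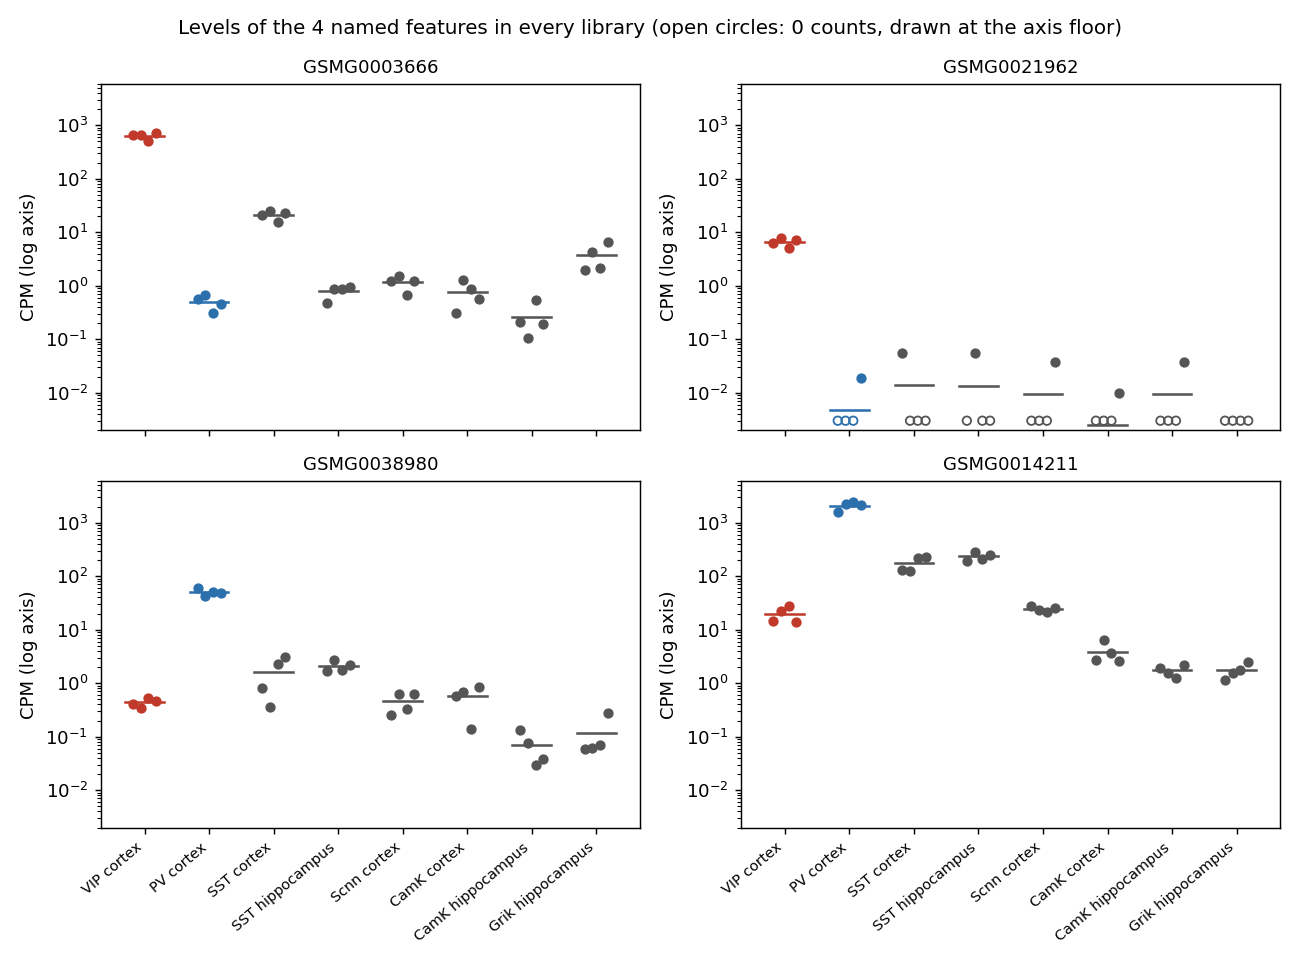
Each panel shows 1 of the 4 named features, with a point per library in CPM on a log axis and a line at the mean of the 4 libraries of a group; red is VIP cortex, blue PV cortex and grey the other 6 groups, and open circles at the floor are libraries with 0 counts. GSMG0003666 and GSMG0021962 stand at 519 to 716 and 5.06 to 7.79 CPM in VIP cortex, above all other groups, and GSMG0038980 and GSMG0014211 stand at 43.0 to 60.7 and 1598 to 2411 CPM in PV cortex, above all other groups.

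The next 20 features on each side were taken by the same rule, which selects for large fold changes and separate libraries. Those higher in VIP cortex had log2 fold changes of 6.70 to 9.57, with means of 5.22 to 2750 CPM in VIP cortex and 0.0229 to 7.38 CPM in PV cortex. Those lower had log2 fold changes of -6.68 to -5.26, with means of 0.107 to 3.81 CPM in VIP cortex and 5.91 to 276 CPM in PV cortex.

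The direction of the differences depended on how abundant a feature was. Features were placed by the mean of both group means, which does not favour either group. Under 1 CPM, 2448 features were called higher and 503 lower in VIP cortex (83.0% of those called were higher). From 1 to 10 CPM the numbers were 1814 higher and 581 lower (75.7%). From 10 to 100 CPM they were close to even, 672 higher and 739 lower (47.6%). At 100 CPM or more, 148 were higher and 355 lower (29.4%), so that called features at high level were mostly higher in PV cortex.

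The balance at intermediate level depended on the scaling of the libraries. The TMM scaling factors were 1.138 to 1.240 in VIP cortex and 0.961 to 1.014 in PV cortex, so the scaling lowers VIP values relative to raw totals. At 10 CPM or more, 820 features were called higher and 1094 lower in VIP cortex (42.8% higher) with TMM, against 1092 higher and 669 lower (62.0%) on raw totals with no scaling factors. At 10 CPM or more the larger side also turned when at least 4-fold was asked for, with 313 higher and 227 lower (58%). On raw totals the median log2 fold change of all tested features was 0.49, against 0.23 with TMM, and over all levels 81.5% of the calls were higher in VIP cortex, against 70% with TMM. At 100 CPM or more the larger side was lower in VIP cortex under both, with 46.5% higher on raw totals, and at least 4-fold the numbers were 63 higher and 65 lower.

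The lists of the most abundant features were compared as well. Of the 100 features with the highest level per kilobase in VIP cortex and the 100 highest in PV cortex, 70 were shared. Among the 100 highest in VIP cortex, 15 were called higher and 22 lower in VIP cortex. Among the 100 highest in PV cortex, 2 were called higher and 44 lower in VIP cortex. Ranked by CPM without regard to length, 65 were shared, and the larger side turned in the VIP list, with 22 called higher and 14 lower in VIP cortex. In the PV list ranked by CPM 2 were called higher and 43 lower. Under both rankings the called features of the PV list were mostly lower in VIP cortex, a direction that choosing by high PV level favours. Choosing by high VIP level favours calls higher in VIP cortex, and the balance in the VIP list depended on the ranking.

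Direction also went with the length of the feature. Among called features in the shortest quartile of those tested (19 to 954), 56.8% were higher in VIP cortex (925 higher, 704 lower). The share was 68.6% in the second quartile, 72.2% in the third and 79.5% in the longest quartile (2708 and more), with 1660 higher and 429 lower. Long features were less abundant, with a median of 1.54 CPM in the longest quartile and 5.19 CPM in the shortest. The same order was seen at 10 CPM or more, where the share of higher features was 30.0% in the shortest quartile (153 higher, 357 lower), 38% and 47.5% in the middle quartiles and 56.6% in the longest (278 higher, 213 lower). On raw totals the shares at 10 CPM or more were 49.5% in the shortest and 72.4% in the longest quartile, and at least 4-fold they were 51.8% (57 higher, 53 lower) and 67.9%. The longest quartile at 10 CPM or more turned to mostly lower in VIP cortex without PV cortex replicate 2 (251 higher, 276 lower), replicate 3 (246 and 255) or replicate 4 (248 and 266), and with no fold threshold (673 and 828). Over all levels the shortest quartile turned without PV cortex replicate 1 (796 higher, 799 lower) and with no fold threshold (1495 and 2015). Under each of these settings the share of higher features was larger in the longest than in the shortest quartile, while the side that was larger within a quartile depended on the setting. The median deposited length was 1968 for features called higher and 1418 for those called lower in VIP cortex, against 1639 for all tested features.

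**Figure D3:**
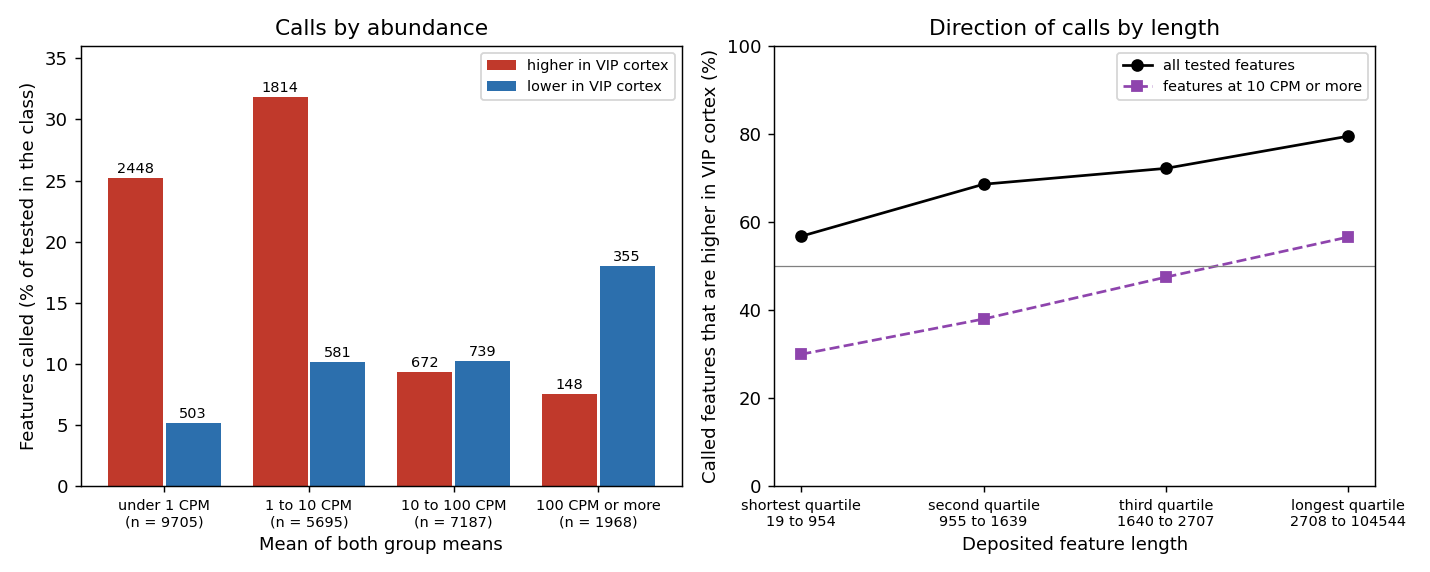
The left panel gives the features called higher (red) and lower (blue) in VIP cortex as a percentage of those tested in each class of mean level, with the number called above each bar: 2448 and 503 under 1 CPM, 148 and 355 at 100 CPM or more. The right panel gives the percentage of called features that were higher in VIP cortex in each quartile of deposited length, for all tested features (black, 56.8% to 79.5%) and for those at 10 CPM or more (purple, 30.0% to 56.6%), with the grey line at 50%.

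Measures of whole libraries were taken without any choice of features by their difference, from the same libraries as the calls. VIP libraries held 15088, 15152, 15483 and 15066 features at 1 CPM or more, against 13912, 14101, 13793 and 13957 in PV libraries, and the groups did not overlap. The means were 15197 ± 194 in VIP cortex and 13941 ± 127 in PV cortex (SD, n = 4 each), a difference of 1256 (p = 0.0286 by a two-sided exact permutation test, which is the smallest value 4 against 4 libraries can give, adjusted p = 0.0429 over 3 measures). SST cortex libraries held 13997 to 14156, close to PV cortex.

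Features shorter than the median length of all features in the file (1196) took up 27.1%, 27.9%, 27.1% and 25.9% of the counts in VIP libraries, against 28.8%, 31.5%, 32.2% and 30.7% in PV libraries. Every VIP library lay below every PV library, and the mean difference was -3.81 percentage points (exact permutation test, two-sided p = 0.0286, adjusted p = 0.0429). SST cortex, at 28.05% to 29.8%, lay above all VIP libraries and overlapped with PV cortex. When the median length of the tested features (1639) was used, the difference was -2.02 points and did not pass the test (exact permutation, adjusted p = 0.171).

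The 100 most abundant features of each library held 22.4% ± 1.55 of the counts in VIP cortex and 23.5% ± 0.926 in PV cortex (SD, n = 4 each). The VIP libraries ranged from 20.8% to 24.5% and the PV libraries from 22.1% to 23.99%, and the difference of -1.13 points did not pass the test (exact permutation, two-sided p = 0.343, adjusted p = 0.343).

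**Figure D4:**
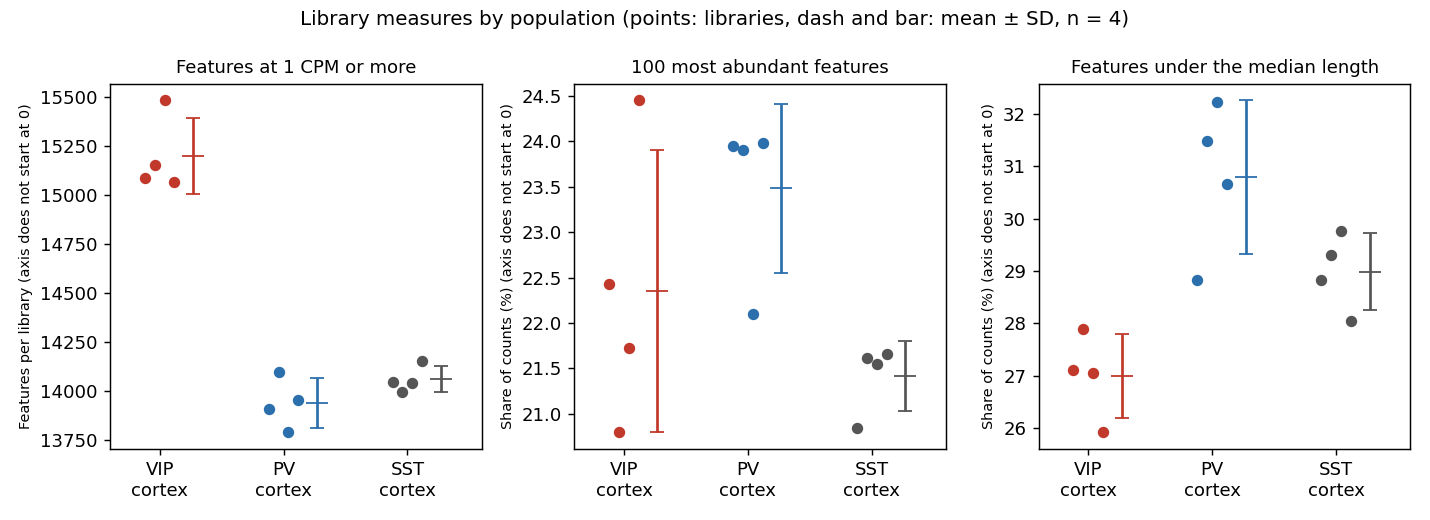
Points are single libraries of VIP cortex (red), PV cortex (blue) and SST cortex (grey), with the mean ± SD of 4 libraries beside them. VIP libraries lie above all PV and SST libraries in features at 1 CPM or more (15066 to 15483) and below all PV libraries in the share of counts in short features (25.9% to 27.9%), while the share of the 100 most abundant features overlaps between VIP and PV cortex; no axis starts at 0.

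The levels of the called features in SST cortex differed between the 2 sides. SST libraries stood on neither side of the VIP and PV contrast, but all 32 libraries shared the filter, the scaling and the estimate of spread behind the calls. In a fit of the 8 VIP and PV libraries alone 7299 features were called, and 6422 of these were among the 7260. Of the 1094 features at 10 CPM or more that were lower in VIP cortex, SST cortex lay between VIP and PV cortex in 960 (87.8%), with median levels of 26.9 CPM in VIP, 81.4 CPM in PV and 49.6 CPM in SST cortex. Of the 820 features that were higher in VIP cortex, SST cortex lay between in 481 (58.7%), above both in 160 (19.5%) and below both in 179 (21.8%). Their median levels were 41.4 CPM in VIP, 10.4 CPM in PV and 24.01 CPM in SST cortex. Over all levels, SST cortex lay between in 1746 of the 2178 features lower in VIP cortex (80.2%), with medians of 4.08 CPM in VIP, 15.6 CPM in PV and 7.92 CPM in SST cortex. Of all 5082 features higher in VIP cortex, SST cortex lay between in 2683 (52.8%) and below both in 1731 (34.1%). It was nearer to PV than to VIP cortex in 65.9% of the 5082, against 46.7% of the 820, and the medians of the 5082 were 1.70 CPM in VIP, 0.44 CPM in PV and 0.58 CPM in SST cortex. Features called higher in PV than in VIP neurons were mostly at an intermediate level in SST neurons. Features called higher in VIP neurons were more varied there and, over all levels, mostly nearer to PV. These are descriptions of the called features, with no test. The call rule asks for VIP and PV levels at least 2-fold apart, which favours an SST level between them. The shares were not counted for features that were not called.

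Contrasts between other populations, with no VIP or PV library on either side but from the same fit, showed where else the same features differed. SST interneurons were set against CamK excitatory neurons in the cortex and in the hippocampus. Of the 1094 features at 10 CPM or more that were lower in VIP cortex, 259 (23.7%) were called higher in SST cortex than in CamK cortex and 41 (3.75%) lower, where 8.48% and 7.92% of all features at this level were. In the hippocampus, 288 of them (26.3%) were called higher in SST than in CamK and 59 (5.39%) lower, where 9.73% and 8.13% of all features at this level were. Over all levels, 637 of the 2178 (29.2%) were called higher and 140 (6.43%) lower in the cortex, where 13% and 11.4% of all tested features were, and 673 (30.9%) and 141 (6.47%) in the hippocampus, where 16.1% and 10.7% were. The features higher in PV than in VIP neurons were thus more often higher than lower in SST against CamK neurons, in both regions.

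The 820 features higher in VIP cortex did not share that lean. In the cortex 175 of them (21.3%) were called higher in SST than in CamK and 261 (31.8%) lower. In the hippocampus 200 (24.4%) were called higher and 250 (30.5%) lower. Both shares were above those of all features at this level, and the larger part was lower in SST than in CamK neurons in both regions. Over all levels this held in the cortex, with 1052 of the 5082 (20.7%) called higher and 1218 (24%) lower. There 13% and 11.4% of all tested features were called higher and lower. In the hippocampus more of the 5082 were called higher (1401, 27.6%) than lower (1150, 22.6%). All tested features had the same larger side there, with 16.1% called higher and 10.7% lower.

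Among excitatory populations of the cortex the picture depended on the level of the features. Of all 5082 features higher in VIP cortex, 1659 (32.6%) were called higher in Scnn than in CamK cortex and 645 (12.7%) lower, where 13.7% and 5.94% of all tested features were. At 10 CPM or more, however, 155 of 820 (18.9%) were called higher in Scnn and 153 (18.7%) lower, where 3.63% and 4.07% of all features at this level were. By number of calls, the lean towards Scnn therefore lay in features of low level, as it did among all tested features. Of those, 3353 were called higher and 1458 lower in Scnn over all levels, and 332 and 373 at 10 CPM or more. The abundant features higher in VIP cortex were called between Scnn and CamK in both directions alike. Of the 1094 features lower in VIP cortex, 63 (5.76%) were called higher and 49 (4.48%) lower in Scnn. Over all levels the shares of the 2178 were 7.85% higher and 6.98% lower, so that fewer of them were called higher than of all tested features.

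In the hippocampus, 135 of the 820 features higher in VIP cortex (16.5%) were called higher in Grik than in CamK neurons and 100 (12.2%) lower, where 3.52% and 3.98% of all features at this level were. Of the 1094 features lower in VIP cortex, 65 (5.94%) were called higher and 113 (10.3%) lower in Grik. Over all levels 17% of the 5082 were called higher and 11.2% lower in Grik, and 7.16% of the 2178 higher and 11.8% lower, where 6.99% and 6.4% of all tested features were. The features higher in VIP cortex were thus called more often than all features in both contrasts of excitatory populations, at either level, while for those lower in VIP cortex this depended on the contrast and the level.

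In the comparisons of regions the hippocampal libraries carry the W as the VIP libraries do, and the cortical SST and CamK libraries do not. Of the 820 features higher in VIP cortex, 81 (9.88%) were called higher in SST hippocampus than in SST cortex and 72 (8.78%) lower, where 1.4% and 2.17% of all features at this level were. For CamK hippocampus against CamK cortex the shares were 10% higher and 19.3% lower, where 2.52% and 6.07% of all features at this level were. Of the 1094 features lower in VIP cortex, 13 (1.19%) were called higher and 59 (5.39%) lower in SST hippocampus, and 46 (4.20%) higher and 129 (11.8%) lower in CamK hippocampus. Over all levels, 578 of the 5082 features higher in VIP cortex (11.4%) were called higher in SST hippocampus and 339 (6.67%) lower, and 54 of the 2178 lower in VIP cortex (2.48%) higher and 159 (7.3%) lower, where 3.92% and 3.54% of all tested features were. Over all levels the larger side in SST hippocampus was thus the same as in VIP cortex for both sets. At 10 CPM or more the 820 features were split almost evenly there (9.88% higher and 8.78% lower). In CamK hippocampus 625 of the 5082 (12.3%) were called higher and 755 (14.9%) lower, and 124 of the 2178 (5.69%) higher and 303 (13.9%) lower, where 5.43% and 8.46% of all tested features were. There both sets were more often lower than higher, as were all tested features. In these values the region and the W cannot be told apart, and the part of the title series in the VIP and PV difference was not tested.

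**Figure D5:**
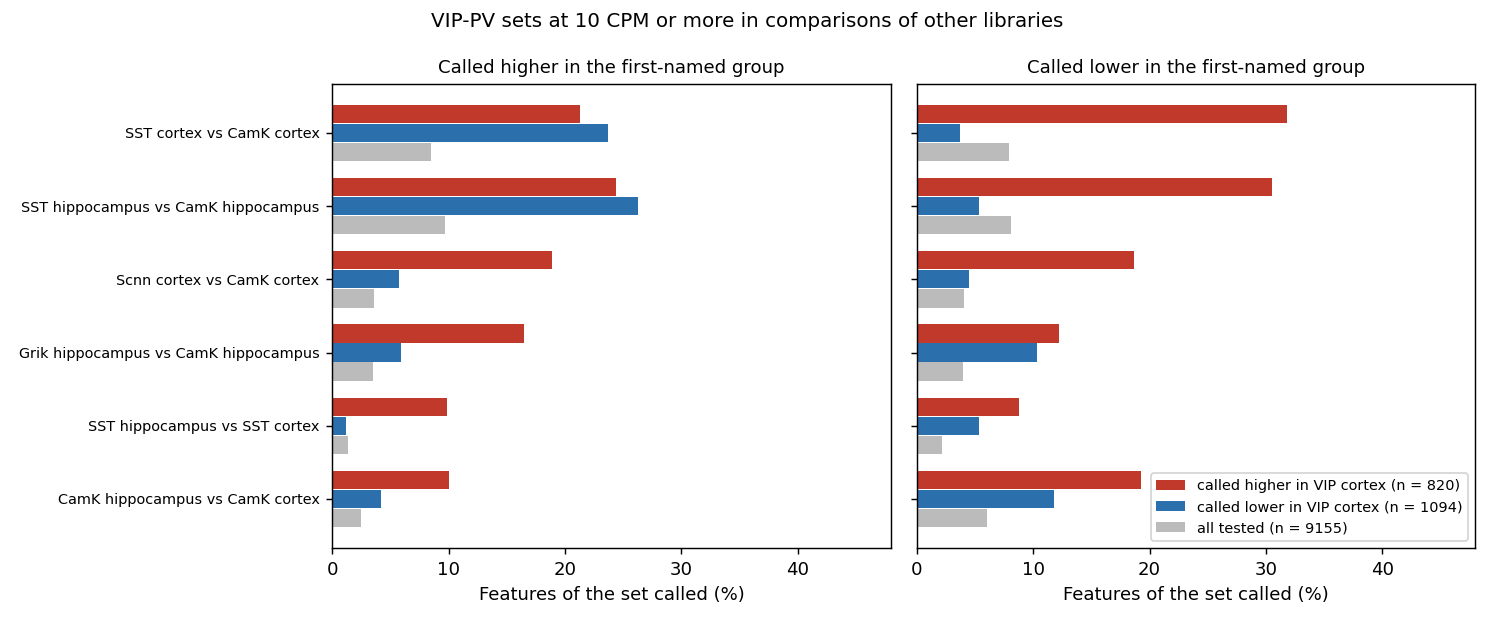
Bars give the percentage of features at 10 CPM or more that were called higher (left) or lower (right) in the first-named group of 6 comparisons that hold no VIP or PV library, for the 820 features higher in VIP cortex (red), the 1094 lower (blue) and all 9155 tested at this level (grey). Features lower in VIP cortex were called higher in SST than in CamK neurons in 23.7% and 26.3% and lower in 3.75% and 5.39%, while features higher in VIP cortex were called on both sides.

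The called features took up different parts of the libraries. Those higher in VIP cortex held 17.7% ± 1.28 of the counts in VIP cortex and 4.14% ± 0.711 in PV cortex, and those lower held 10.5% ± 0.264 in VIP cortex and 26% ± 0.572 in PV cortex (SD, n = 4 each), as their choice requires. In the populations on neither side of the contrast, the features lower in VIP cortex held 16% ± 0.129 in SST cortex and 15.9% ± 0.371 in SST hippocampus. They held 11.4% ± 0.850 in Scnn cortex, 11.7% ± 0.0310 in CamK cortex, 11.6% ± 0.224 in CamK hippocampus and 12% ± 0.143 in Grik hippocampus. The 8 SST libraries, at 15.5% to 16.3%, thus all gave more of their counts to these features than any of the 16 excitatory libraries, at 10.2% to 12.2%. The features higher in VIP cortex held 8.12% ± 0.868 in SST cortex, 8.56% ± 0.854 in SST hippocampus, 9.73% ± 0.0699 in CamK hippocampus, 9.92% ± 0.182 in Grik hippocampus and 10.6% ± 0.0816 in CamK cortex. Scnn cortex was higher and more variable, at 16.8% ± 4.64, with libraries from 12.6% to 23.2%. In the library with 23.2%, Scnn cortex replicate 2, the 10 most abundant features alone held 17.7% of all counts. How far a few abundant features carry the share in Scnn cortex was not tested.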

How the data were processed

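Ribosome-associated RNA of 32 mouse libraries was sequenced, and the 4 VIP cortex and 4 PV cortex libraries are described here. The authors deposited estimated counts (expected counts, often not whole numbers) for each feature and library. Per the submitters' processing notes, featureCounts, SAMtools, Picard and FastQC were among the tools and the build was GRCm38, with neither roles nor versions. The aligner, the feature annotation and the use of strand are not stated there, so overlapping features and near-identical copies are uncertain. The table's other 12 columns of per-sample values match no sample label and were not used. The deposited length per feature, a whole number with no stated unit, was taken as bases.

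The rounded values went into edgeR 4.0.16 (R 4.3.3). A filter on low counts (filterByExpr) kept 24555 of 56459 features (43.5%), and 15646 were at 0 in every library. A feature high in 1 group alone could pass it. After TMM scaling, all 32 libraries entered 1 quasi-likelihood fit with robust dispersion, a term for each of the 8 groups and 24 residual degrees of freedom. CPM are TMM-scaled. The SE of a log2 fold change was obtained by dividing its absolute value by the root of the F statistic. Library measures were compared by exact permutation tests (scipy 1.17.1), two-sided, with Benjamini-Hochberg adjustment over 3. The fit was tested on simulated counts. Of the called features with 5 CPM or more in the higher group and no overlap, the top 2 by log2 fold change in each direction were named. Marker lists were laid down but not used, as no identifier has a gene name. The comparison and its lists were chosen with earlier results of these data known. Alternatives were scaling by RLE, upper quartile or raw totals, DESeq2 1.42.0, other filters and fold thresholds, fewer libraries, a replicate block, halved counts and leaving out each library.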

Additional observations from a re-analysis of the deposited data

Results flagged for a closer look

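In 38 sets of 4 libraries, 8 held a library whose gap to its nearest neighbour exceeded Dixon's 95% limit, as a part of the whole range, where chance gives about 1 in 20. In 6 of the 8 the feature was GSMG0021962, with 0 counts in the other 3 libraries of the group. These values were 0.01902 CPM in PV cortex replicate 4, 0.05558 CPM in SST cortex replicate 1, 0.05429 CPM in SST hippocampus replicate 2, 0.0376 CPM in Scnn cortex replicate 4, 0.009984 CPM in CamK cortex replicate 4 and 0.03805 CPM in CamK hippocampus replicate 5. GSMG0038980 was at 0.2808 CPM in Grik hippocampus replicate 6, above the other 3 libraries of that group. The 100 most abundant features held 22.094% of the counts in PV cortex replicate 3, below the other 3 PV libraries.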

How the results depend on the processing

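The number of called features, 7260, moved by over 1.5 times only with the fold threshold: it was 13653 with none (6225 lower in VIP cortex) and 3263 at 4-fold (2582 higher, 681 lower). On raw totals without scaling factors, an alternative chosen after seeing the data, 1445 features were lower. With any 1 library left out, 6619 to 7441 were called, 4190 to 5308 higher and 1837 to 2583 lower. The log2 fold changes of the 4 named features kept their direction and stayed called under all 18 alternatives run for each. In the fit of the 8 libraries alone the edgeR adjusted p was 5.22e-11 for GSMG0003666 and 4.31e-09 for GSMG0021962. For GSMG0038980 it was 3.01e-11 there, and for GSMG0014211 2.91e-07. GSMG0021962 moved most, from 9.68 to 12.45 with 1 library left out, the highest without PV cortex replicate 4, which leaves 0 counts in PV cortex. With the replicate number as a replicate block in the fit of the 8 libraries, 7011 features were called, against 7299 without the block. Deviations of same-numbered VIP and PV libraries correlated at -0.069 to 0.045, and those of differently numbered ones at -0.073 to 0.07. Whether same-numbered libraries share an origin is not stated in the labels, and these correlations cannot decide it. DESeq2 called 7642, with 4 adjusted p missing.

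Without 1 library, the difference in features at 1 CPM or more was 1161 to 1310 and that in the share of short features -4.462 to -3.326 points. An exact test of 3 against 4 libraries can give no p under 0.0571, so neither could pass there. The difference in short features was -0.05479 points below the lower quartile of length and -2.02 with the length limit of the tested features, and neither passed. The share of the 1000 most abundant features differed by -3.109 points and passed (exact permutation, adjusted p = 0.0286), while that of the 100 most abundant did not (-1.833 to -0.6138 with 1 library left out). Depth, at 100158438 counts or more in each of the 8 libraries, limits mainly features with a few counts in a group, and their fold changes are not bounds.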
